A study of Mus musculus with 40 samples.

Results

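The comparison described here is between the parental embryonic stem (ES) cell lines of the Nanog experiment, MG1.19 and ES 129.3, neither of which carries a Nanog transgene. Its members are the 3 arrays titled MG1.19 and the 3 arrays titled ES 129.3, chosen by title from the 40 samples of the series, and they form 3 pairs because each line was hybridised once in each of 3 media. LIF+ is complete ES medium with leukemia inhibitory factor, LIF- is the same medium without it, and LIF+RA is complete medium with 1 µM all-trans retinoic acid. MG1.19 is labelled as male, of strain 129Sv and at passage 5, and ES 129.3 as male, of strain 129SvEv-Tac and at passage 12. The 2 lines differ in strain, passage and history at the same time, so none of these can be told apart as a source of a difference. MG1.19 is itself a modified line, since it was made to express the polyoma large T antigen that maintains episomal plasmids. Of the Nanog clones, Nanog episomal (strain 129Sv) is set beside MG1.19 here, and Nanog/EF1#6, which holds an integrated transgene (strain 129SvEv-Tac), beside ES 129.3, because the strain labels match. The sources differ on the parents, since the methods name the line MC1 of a 129 substrain for the integrated clone, while the design text gives MG1.19 for the integrated and EBRTcH3 for the episomal one. Each clone was measured in the same media, on 6 further arrays that share no hybridisation with the parental arrays.

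ES cell lines are derived from the inner cell mass of the blastocyst and are held in self-renewal by Pou5f1, Sox2 and Nanog, with LIF signalling through Stat3 in support. Lines of closely related strains share this circuitry, but can drift apart in culture in the expression of imprinted genes, whose 2 parental alleles are marked by DNA methylation, and in chromosome number. Imprinting and karyotype were not measured here.

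A level below is log2 of the Cy3 signal of the sample over the Cy5 signal of a universal mouse reference RNA, so a level of 0 is that of the reference and not absence. A difference is the level in MG1.19 minus that in ES 129.3, and is positive where MG1.19 was higher. Where a line has 3 values, they are those of LIF+, LIF- and LIF+RA in that order. Median Cy3 signals of the 6 arrays were 567.5 to 662.4 over a median local background of 376 to 386, and between 1.78% and 4.11% of probes for genes fell below a limit set by the negative-control spots (their 95th percentile). The number of arrays limits the precision, as no line has a repeat within a medium, and p-values measure how steady the line difference was across media. The MG1.19 images were all analysed on 1 day and the ES 129.3 images on another, so day and line cannot be told apart.

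The labels were checked first. Socs3, a direct target of LIF signalling, had levels of 1.04, -1.81 and 0.68 in MG1.19 and 0.42, -1.64 and 0.74 in ES 129.3, and was low in LIF- in both lines. Cyp26a1, which degrades retinoic acid and is induced by it, had levels of 0.23, 0.33 and 2.75 in MG1.19 and 0.47, 1.05 and 2.61 in ES 129.3, and was high in LIF+RA in both. The Y-linked Eif2s3y had levels of 2.71 to 2.78 in MG1.19 and 2.65 to 2.92 in ES 129.3. None of 7 Y-linked genes was called between the lines, where 0.84% of all genes were. Ddx3y, a Y-linked RNA helicase, had levels of 1.56, 1.23 and 1.36 in MG1.19 and 0.88, 0.82 and 0.56 in ES 129.3, a difference of 0.63 ± 0.09 (SE, limma adjusted p = 0.0503).

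No core pluripotency factor passed the test between the lines. Pou5f1 had levels of 2.14, 2.87 and 0.82 in MG1.19 and 2.16, 2.79 and 0.49 in ES 129.3, and the groups overlapped. Sox2 had levels of 5.95, 5.31 and 4.21 in MG1.19 and 5.47, 4.92 and 4.45 in ES 129.3. Nanog had levels of 1.91, 1.93 and 1.26 in MG1.19 and 1.61, 1.83 and 1.27 in ES 129.3. The differences were 0.13 ± 0.08 for Pou5f1, 0.21 ± 0.15 for Sox2 and 0.13 ± 0.07 for Nanog (SE), with limma adjusted p-values of 0.482, 0.552 and 0.451. The 95% intervals were -0.08 to 0.34 for Pou5f1, -0.18 to 0.61 for Sox2 and -0.06 to 0.32 for Nanog. None of the 14 core pluripotency genes was called, where 0.84% of all genes were, and their median difference was 0.07.

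Over all genes, medium moved expression more than line. Of the summed squares over 37603 genes, 67.8% went with medium, 21.2% with line and 11% with neither. Genes were called at a limma adjusted p of 0.05 and a 1.5-fold mean difference, and 316 of 37603 genes (0.84%) met both, 129 higher in MG1.19 (0.343%) and 187 higher in ES 129.3 (0.497%). The 3 arrays of MG1.19 and the 3 of ES 129.3 did not overlap for 225 of the 316, and over all genes 0.952% had no overlap and a 1.5-fold difference. The number called rests on the processing and on single pairs of arrays. It was 2 with the processed signals of the scanner software and also with the values normalized by the authors, 14 with Cy3 alone, 2 with a correction of Cy5 bleaching and 9 with medium left out of the fit. Without the LIF+ pair or without the LIF- pair limma called 0 genes, with 5242 and 4422 genes at an unadjusted p of 0.05, against 6683 (17.8%) with all pairs. For the genes in the plot of the largest differences the sign was the same under all 12 alternatives run on single genes. These genes were chosen for the same sign in all 3 media. Leaving out a pair, or medium from the fit, could therefore not change their sign. Levels are given array by array.

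**Figure D1:**
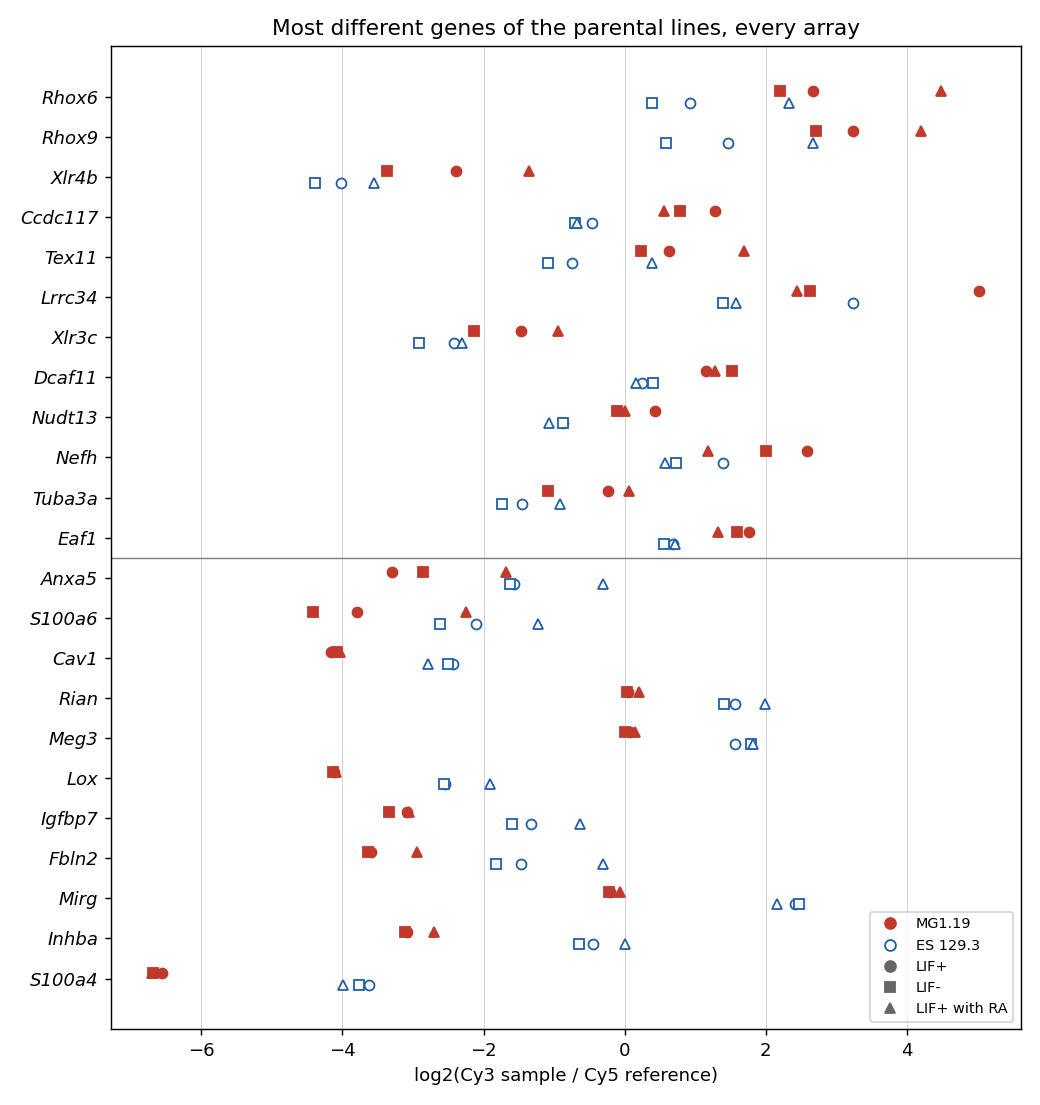
Levels, log2(Cy3 sample/Cy5 reference), of the named genes with the largest called difference in each direction, at most 12 a direction, with every array shown: filled red symbols are MG1.19, open blue symbols ES 129.3, and the shape gives the medium. S100a4, Inhba and Mirg stand furthest apart, with MG1.19 at -6.70 to -6.56 and ES 129.3 at -3.99 to -3.62 for S100a4.

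A difference that held in every medium lay in the noncoding RNAs of 1 imprinted cluster on chromosome 12. Meg3, Rian and Mirg are long noncoding RNAs that are transcribed from the maternal chromosome and carry small nucleolar RNAs and microRNAs, and loss of this transcription is a known variation between mouse ES and induced pluripotent cell lines. They were measured by the following 60-base probes, shown because all statements on the cluster rest on them, and none holds a CG dinucleotide.
Meg3: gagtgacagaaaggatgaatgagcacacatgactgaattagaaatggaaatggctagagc
Rian: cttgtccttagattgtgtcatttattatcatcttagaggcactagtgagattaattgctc
Mirg: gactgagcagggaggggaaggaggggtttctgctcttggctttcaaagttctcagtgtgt

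Mirg had levels of -0.21, -0.22 and -0.06 in MG1.19 and 2.42, 2.47 and 2.16 in ES 129.3, a difference of -2.51 ± 0.11 (SE, limma adjusted p = 0.0196). Meg3 had levels of 0.08, 0.00 and 0.15 in MG1.19 and 1.56, 1.80 and 1.82 in ES 129.3, a difference of -1.65 ± 0.08 (limma adjusted p = 0.0196). Rian had levels of 0.05, 0.04 and 0.21 in MG1.19 and 1.57, 1.41 and 1.99 in ES 129.3, a difference of -1.56 ± 0.09 (limma adjusted p = 0.0216). The lines were far from overlapping for each of them, and neither line moved much between media. The unprocessed Cy3 signal of Meg3 was 425.8 to 432.6 in MG1.19, just over the negative-control limit of those arrays (413 to 415.1), and 601.8 to 637.2 in ES 129.3. That of Rian was 482 to 500.7 in MG1.19, also near that limit, and 763.6 to 914.4 in ES 129.3. That of Mirg was 789.3 to 890.5 in MG1.19 and 2506.6 to 4293.3 in ES 129.3. With the processed signals of the scanner software or the values normalized by the authors, the difference was -2.64 for Mirg, -2.68 for Meg3 and -1.98 for Rian. Limma called none of them in either setting. The size of the Meg3 difference thus depended on the processing, and which size is nearer to the true one was not tested.

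The same 3 RNAs were lower in each medium in the clone set beside MG1.19. The difference of Nanog episomal minus Nanog/EF1#6 was -1.89 for Mirg, -1.22 for Meg3 and -1.23 for Rian. The limma unadjusted p-values were 0.00125, 0.0062 and 0.00115, and the adjusted ones 0.115, 0.173 and 0.114, so none was called there. The test of parental minus clone difference gave limma adjusted p-values of 0.44 for Mirg, 0.658 for Meg3 and 0.649 for Rian, with differences of the differences of -0.62, -0.43 and -0.33. Dlk1, a protein-coding gene of the same cluster that is expressed from the paternal chromosome, had levels of -3.49, -3.17 and -0.26 in MG1.19 and -2.76, -2.77 and -0.57 in ES 129.3. Its difference of -0.28 ± 0.20 had a limma adjusted p of 0.56. Of 27 imprinted genes measured out of 33 listed, 0 were called higher in MG1.19 (0.343% of all genes) and 3 higher in ES 129.3 (0.497% of all genes), and these were Meg3, Rian and Mirg. The median difference of the 27 genes was -0.02 beside 0 over all genes. H19, another maternally expressed noncoding RNA, had a difference of 0.19 ± 0.06, and Igf2, the growth factor beside it, one of 0.02 ± 0.05, and neither was called.

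The 250 bases before the annotated start of Meg3 are shown because this start lies at the head of the noncoding RNAs of the cluster (RefSeq, GRCm38.p6, plus strand, chr12:109540746-109540995). Capitals mark the CG dinucleotides, the bases at which methylation is maintained.
Meg3 upstream: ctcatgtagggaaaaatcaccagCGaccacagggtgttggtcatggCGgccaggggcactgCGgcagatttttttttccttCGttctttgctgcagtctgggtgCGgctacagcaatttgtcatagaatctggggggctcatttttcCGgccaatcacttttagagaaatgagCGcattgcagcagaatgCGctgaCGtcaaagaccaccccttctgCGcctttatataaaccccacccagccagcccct
The window holds 10 CG, against a median of 6 over 32851 such windows of the reference table, and 37.8% of these hold as many or more. A CG reads the same on both strands, and the count is a description of the reference sequence, since no methylation was measured. The 13 DNA methylation genes measured out of 14 listed had a median difference of 0.06, and none was called, where 0.84% of all genes were.

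Rhox6 and Rhox9, homeobox genes of the reproductive cluster that are active in germ and extraembryonic cells, had the largest differences among named genes called higher in MG1.19. Rhox6 had levels of 2.68, 2.21 and 4.49 in MG1.19 and 0.93, 0.39 and 2.34 in ES 129.3, a difference of 1.91 ± 0.09 (SE, 3.75-fold, limma adjusted p = 0.0196). A second Rhox6 probe gave a difference of 2.05. Rhox9 had levels of 3.24, 2.71 and 4.21 in MG1.19 and 1.47, 0.59 and 2.68 in ES 129.3, a difference of 1.81 ± 0.12 (3.50-fold, limma adjusted p = 0.0233). Both genes were highest on RA in either line, so the lines differ clearly only within a medium for Rhox6, while the arrays of Rhox9 do not overlap. Both belong to a family of related genes, and cross-hybridisation between its members was not tested. Rhox5, the founding member, had levels of 1.30, -0.46 and 0.98 in MG1.19 and 0.93, -0.09 and 1.12 in ES 129.3, and was not called. Tex11, a meiosis gene on the X chromosome, had levels of 0.63, 0.23 and 1.69 in MG1.19 and -0.74, -1.09 and 0.39 in ES 129.3, a difference of 1.33 ± 0.05 (limma adjusted p = 0.0165). Of 17 germline-linked genes measured out of 22, a list without Tex11, 2 were called and both were higher in MG1.19, as 0.343% of all genes were. The median difference of the list was 0.04. With the same sign in all 3 media and a mean of at least 1.5-fold, 2 were higher in MG1.19 and 1, Zscan4c, in ES 129.3. On the X chromosome as a whole, 5 of 508 genes were called higher in MG1.19 and 8 higher in ES 129.3. Together they were 2.56% of its genes, where 216 of all 13690 named genes with a chromosome were called. The clones differed in the same direction, by 1.16 for Rhox6, 0.61 for Rhox9 and 1.15 for Tex11.

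Xlr4b and Xlr3c, X-linked genes of a lymphocyte-regulated family with near-identical copies, were also higher in MG1.19. Xlr4b had levels of -2.39, -3.37 and -1.36 in MG1.19 and -4.02, -4.39 and -3.55 in ES 129.3, a difference of 1.61 ± 0.22 (limma adjusted p = 0.0492). Its other probes gave differences of 1.12 and 0.34 (limma unadjusted p = 0.00412 and 0.166), so they disagree in size. Xlr3c had levels of -1.47, -2.13 and -0.94 in MG1.19 and -2.42, -2.91 and -2.31 in ES 129.3, a difference of 1.04 ± 0.12 (limma adjusted p = 0.0396). Signal of one copy may not be separated from that of another, so which copy was measured is uncertain. In the clones the sign was the opposite, -1.28 for Xlr4b and -0.91 for Xlr3c.

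Lrrc34, a leucine-rich repeat protein of pluripotent cells, had levels of 5.03, 2.63 and 2.45 in MG1.19 and 3.24, 1.40 and 1.58 in ES 129.3, a difference of 1.30 ± 0.18 (limma adjusted p = 0.048). The MG1.19 array in LIF+ was far above the rest. Nefh, the heavy neurofilament subunit, had levels of 2.59, 2.00 and 1.18 in MG1.19 and 1.39, 0.73 and 0.57 in ES 129.3. Tuba3a, an alpha-tubulin of testis, had levels of -0.24, -1.09 and 0.07 in MG1.19 and -1.45, -1.74 and -0.92 in ES 129.3. The lines overlapped for Lrrc34, Nefh and Tuba3a across media but not within any medium.

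Gata2 and Gata3, zinc-finger transcription factors of trophoblast and blood, were the called members among 14 trophoblast genes. Both were higher in MG1.19, as 0.343% of all genes were. Gata2 had levels of 0.00, -0.32 and 1.39 in MG1.19 and -0.94, -1.07 and 0.46 in ES 129.3, a difference of 0.87 ± 0.06 (limma adjusted p = 0.0233). Gata3 had levels of -1.23, -0.72 and 0.67 in MG1.19 and -2.08, -1.57 and -0.12 in ES 129.3, a difference of 0.83 ± 0.05 (limma adjusted p = 0.0216). Cdx2, which specifies trophectoderm, had a difference of -0.06 ± 0.06 and was not called, and the median of the list was 0.11. With the same sign in all 3 media and a mean of at least 1.5-fold, 3 were higher in MG1.19 and 1 in ES 129.3. The latter was Krt18, a keratin, with a difference of -0.84 (limma unadjusted p = 0.058). Its dimmer second probe gave -0.41 (limma unadjusted p = 0.353). The highest Cy3 signal of the brighter probe was 65517.1 in MG1.19 and 65488.2 in ES 129.3, at or near the scanner ceiling.

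S100a4, a calcium-binding protein of motile and mesenchymal cells, had the largest difference of any named gene. Its levels were -6.56, -6.69 and -6.70 in MG1.19 and -3.62, -3.77 and -3.99 in ES 129.3, a difference of -2.85 ± 0.07 (SE, 7.23-fold, limma adjusted p = 0.00363). Its Cy3 signal was 941 to 1081.1 in MG1.19 and 4984.9 to 8785.8 in ES 129.3. Inhba, which encodes the subunit of activin A, had levels of -3.08, -3.12 and -2.70 in MG1.19 and -0.45, -0.64 and 0.01 in ES 129.3, a difference of -2.60 ± 0.06 (6.08-fold, limma adjusted p = 0.00363). Medium hardly moved either gene, and the lines did not overlap.

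Secreted and matrix proteins followed. Fbln2, an extracellular matrix fibulin, had levels of -3.60, -3.64 and -2.94 in MG1.19 and -1.47, -1.82 and -0.30 in ES 129.3, a difference of -2.20 ± 0.16. Igfbp7, a secreted binding protein of insulin-like growth factors, had levels of -3.09, -3.34 and -3.06 in MG1.19 and -1.33, -1.59 and -0.63 in ES 129.3. The lines did not overlap for either gene, and limma adjusted p-values were 0.0233 and 0.0238. Lox, which cross-links collagen and elastin, had levels of -4.12, -4.13 and -4.09 in MG1.19 and -2.54, -2.56 and -1.91 in ES 129.3. Its Cy3 signal was 463.7 to 479.3 in MG1.19, near the negative-control limit of 413 to 415.1, and 726.5 to 854.1 in ES 129.3. Cav1, the main protein of caveolae, had levels of -4.17, -4.08 and -4.03 in MG1.19 and -2.43, -2.50 and -2.79 in ES 129.3. Anxa5, a calcium-dependent phospholipid-binding protein, had levels of -3.30, -2.86 and -1.68 in MG1.19 and -1.57, -1.63 and -0.31 in ES 129.3. These were also non-overlapping, while S100a6, a relative of S100a4, had -3.80, -4.42 and -2.25 in MG1.19 and -2.11, -2.62 and -1.23 in ES 129.3, and overlapped across media.

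Several of these genes are also known from fibroblasts, on which ES cells are routinely grown, although the cells measured here had been passaged on gelatin to remove feeder cells. Of 15 fibroblast markers measured out of 17, 0 were called higher in MG1.19 (0.343% of all genes) and 4 higher in ES 129.3 (0.497% of all genes), namely Col1a2, Twist1, S100a4 and Vim, and the median difference was -0.39 beside 0 over all genes. Their mean level was -2.20, -2.14 and -1.50 in MG1.19 and -1.67, -1.57 and -0.80 in ES 129.3. Vim, the intermediate filament of mesenchymal cells, had levels of -3.54, -3.50 and -1.33 in MG1.19 and -2.59, -2.50 and -0.68 in ES 129.3, a difference of -0.87 ± 0.08 (limma adjusted p = 0.0319). Col1a2, a chain of type I collagen, had a difference of -0.83 ± 0.11 (limma adjusted p = 0.0493). Thy1, a defining surface marker of fibroblasts, had a difference of -0.05 ± 0.05, Dcn, a collagen-binding proteoglycan abundant in fibroblasts, -0.01 ± 0.09, and Lum, a related proteoglycan, 0.01 ± 0.06, with levels of -4.37, -4.09 and -2.87 for Dcn in MG1.19 and -4.33, -4.29 and -2.68 in ES 129.3. In such bulk RNA, fewer cells of a type and less RNA per cell cannot be told apart, and the part of other cells in these differences was not tested.

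The actin and contractile genes lay on the same side, most of all in LIF+. Of 20 measured out of 21, 1 was called higher in ES 129.3, as 0.497% of all genes were. It was Actg2, a smooth muscle actin (-0.78 ± 0.09, limma adjusted p = 0.0403). A further count took genes on average at least 1.5-fold higher in ES 129.3 with the same sign in all 3 media. It held 11 of the list and 1.18% of all genes, against 0.654% of all genes for MG1.19. In the clones the median of the list was 0.35, on the other side. Their median difference was -1.11 in LIF+, -0.60 in LIF- and -0.23 in LIF+RA, beside 0, 0 and -0.01 over all genes. Acta2, the smooth muscle alpha-actin, had levels of -2.57, -2.01 and 1.36 in MG1.19 and -0.42, -0.67 and 2.23 in ES 129.3. Tagln, an actin-binding protein of smooth muscle, had levels of -0.36, 0.77 and 2.67 in MG1.19 and 1.77, 1.83 and 2.87 in ES 129.3. Both were high on RA in either line, and the gap in Acta2 was widest in LIF+. The Cy3 signal of Tagln on RA was at the scanner ceiling in both lines (65517.4 and 65517.3), so its RA levels are saturated and their gap is not read.

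In the Nodal and activin pathway, Inhba and several feedback inhibitors were on the side of ES 129.3. These TGF-beta family ligands act through Smad2 and Smad3 and support the primed state of the epiblast. Of 12 genes measured, Inhba was called higher in ES 129.3 (0.497% of all genes), and 5 were on average at least 1.5-fold higher in ES 129.3 with the same sign in all 3 media (1.18% of all genes). Fst, the secreted inhibitor of activin, had levels of -0.71, 1.97 and -0.08 in MG1.19 and 1.56, 3.03 and 1.52 in ES 129.3, a difference of -1.64 ± 0.23 (limma adjusted p = 0.0504), and its second probe gave -0.96. Lefty1, a secreted Nodal inhibitor, had levels of 3.94, 4.71 and 3.08 in MG1.19 and 5.60, 5.15 and 5.16 in ES 129.3, and did not pass the test (limma adjusted p = 0.12), although its arrays did not overlap between the lines. Nodal itself had a difference of -0.36 ± 0.08 and was not called.

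**Figure D2:**
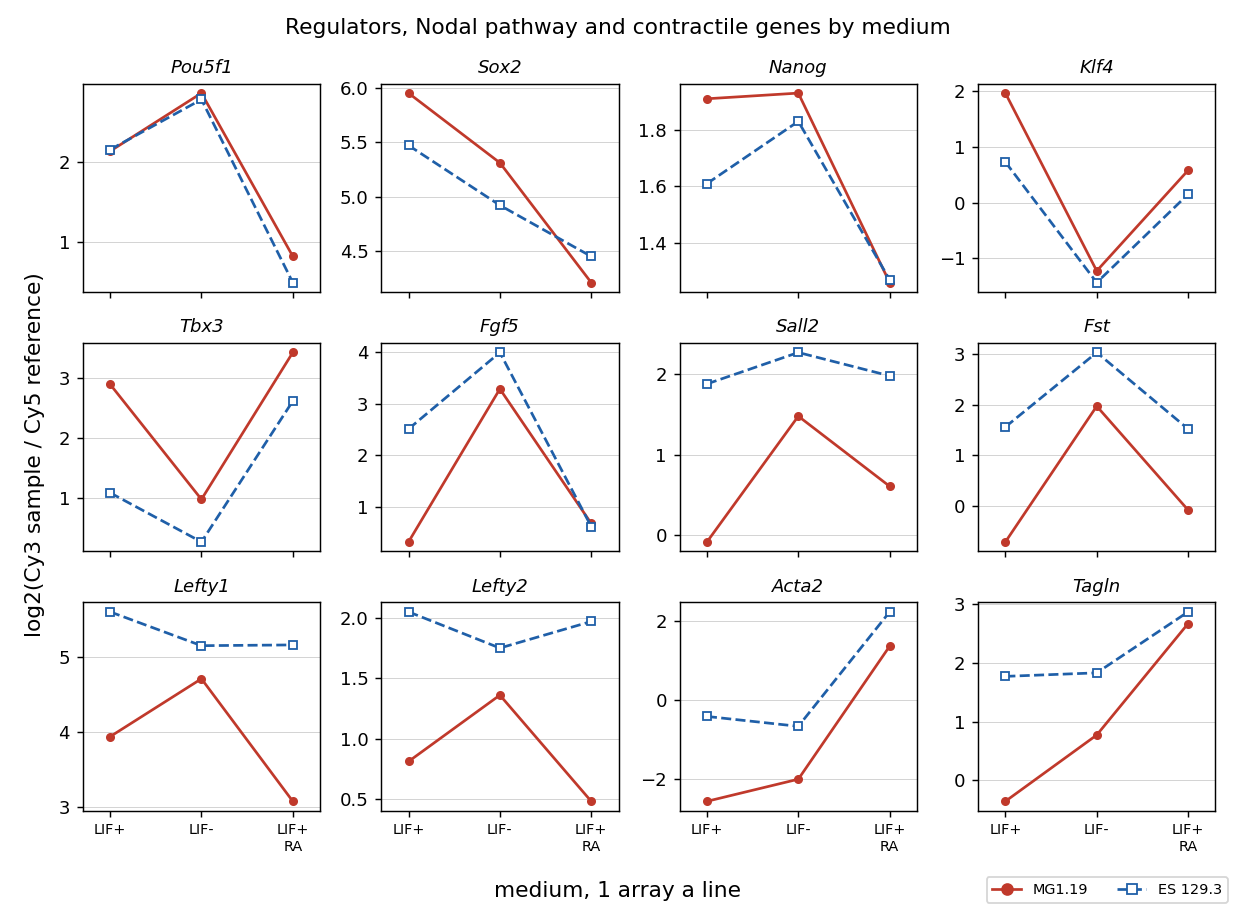
Levels, log2(Cy3 sample/Cy5 reference), of 12 genes in each medium, with 1 array a line and medium and a separate vertical scale for each gene. MG1.19 is drawn with filled red circles and solid lines, ES 129.3 with open blue squares and broken lines. Pou5f1 runs together in both lines, while Klf4, Tbx3 and Fgf5 are furthest apart in LIF+.

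The lines differed most in LIF+. In that medium 132 genes were at least 2-fold higher in MG1.19 (0.351%) and 241 in ES 129.3 (0.641%), against 45 (0.12%) and 81 (0.215%) in LIF- and 56 (0.149%) and 186 (0.495%) in LIF+RA. At 2-fold, 8 genes were higher in MG1.19 in all 3 media and 26 in ES 129.3. These are single arrays with no test. The ES 129.3 array in LIF+ correlated with that in LIF- at r = 0.957 across probes, which are not independent, whereas for MG1.19 the value was 0.927. The same ES 129.3 array correlated at 0.935 with MG1.19 in LIF- and at 0.918 with MG1.19 in LIF+.

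The medians of the naive and of the primed list were also furthest from 0 in LIF+. Klf4, a naive-state factor downstream of LIF, had levels of 1.97, -1.23 and 0.58 in MG1.19 and 0.73, -1.44 and 0.15 in ES 129.3. Tbx3, another naive-state factor, had levels of 2.90, 0.98 and 3.43 in MG1.19 and 1.09, 0.27 and 2.62 in ES 129.3, a difference of 1.11 ± 0.23 (limma adjusted p = 0.0987). Fgf5, the growth factor that marks the primed epiblast, had levels of 0.31, 3.29 and 0.67 in MG1.19 and 2.51, 4.00 and 0.61 in ES 129.3. T, the T-box factor of the primitive streak, had levels of 0.08, 1.61 and -0.02 in MG1.19 and 1.53, 3.20 and -0.01 in ES 129.3. Klf4 and Tbx3 were higher in MG1.19 and Fgf5 and T higher in ES 129.3 in LIF+ and in LIF-, and on RA the levels of the latter pair lay close together. Over all genes 0.84% were called in either direction. Of 16 naive genes 0 were called, with medians of 0.53, 0.22 and 0.08 in LIF+, LIF- and LIF+RA. With the same sign in all 3 media and a mean of at least 1.5-fold, 3 naive genes were higher in MG1.19. By the same count 1, Spp1, was higher in ES 129.3. Over all genes these shares were 0.654% and 1.18%. Of 12 primed epiblast genes 1 was called, Cdh2 (N-cadherin, -0.96 ± 0.06, limma adjusted p = 0.0216), and the medians were -0.75, -0.20 and -0.15. Sall2, a zinc-finger factor encoded on chromosome 14, had levels of -0.08, 1.48 and 0.61 in MG1.19 and 1.88, 2.27 and 1.98 in ES 129.3, a difference of -1.37 ± 0.22 (limma adjusted p = 0.0641).

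Among cell cycle regulators, both called inhibitors were higher in ES 129.3. Cdkn1a, the p21 inhibitor and a target of p53, had levels of -1.50, -1.39 and -0.47 in MG1.19 and -0.51, -0.11 and 0.55 in ES 129.3, a difference of -1.10 ± 0.07 (limma adjusted p = 0.0233). A dimmer second probe of Cdkn1a gave -0.24. Cdkn2b, the p15 inhibitor, had levels of -1.15, -1.17 and 1.29 in MG1.19 and 0.17, -0.20 and 2.36 in ES 129.3, a difference of -1.12 ± 0.08 (limma adjusted p = 0.0233). Cdkn1a was the only call among 18 p53 target genes, whose median was -0.12. Cdc6, a licensing factor of DNA replication, was higher in MG1.19 by 0.63 ± 0.07 (limma adjusted p = 0.0379). With Cdkn2b it made up the calls among 26 genes of the E2F and G1/S list, whose median was -0.06. Mt2, a metallothionein, was the only call of 19 glutathione and redox genes (0.59, higher in MG1.19), and Fn1, fibronectin, was called with Cdh2 among 16 adhesion and surface genes (-0.77, higher in ES 129.3). Of 26 lists with a measured gene, 15 had none called, among them the interferon-stimulated, antigen presentation, neural, primitive endoderm, BMP and retinoid lists. Over all genes 0.84% were called, so a short list with none called says little about its genes.

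Called genes were most frequent on chromosome 14. Of 216 with a symbol, 59 were on chromosome 14 (27.3%), where 3.45% of all named genes lie. On that chromosome 12.5% of 472 genes were called, 43 higher in MG1.19 and 16 higher in ES 129.3, and on chromosome 11, 27 of 1095 genes were called, every one higher in MG1.19. The largest of these was Ccdc117, a coiled-coil gene on chromosome 11 with levels of 1.29, 0.79 and 0.56 in MG1.19 and -0.46, -0.70 and -0.67 in ES 129.3, a difference of 1.49 ± 0.11 (limma adjusted p = 0.0233), and its dimmer second probe gave 0.88. On chromosome 14 the largest of those higher in MG1.19 were Dcaf11, a substrate receptor of a ubiquitin ligase (1.04 ± 0.07), Nudt13, a nudix hydrolase (1.04 ± 0.11), and Eaf1, a factor of transcription elongation (0.91 ± 0.11), and the lines did not overlap for any of them. A dimmer second probe of Nudt13 gave 0.04 (limma unadjusted p = 0.396), so its probes disagree.

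**Figure D3:**
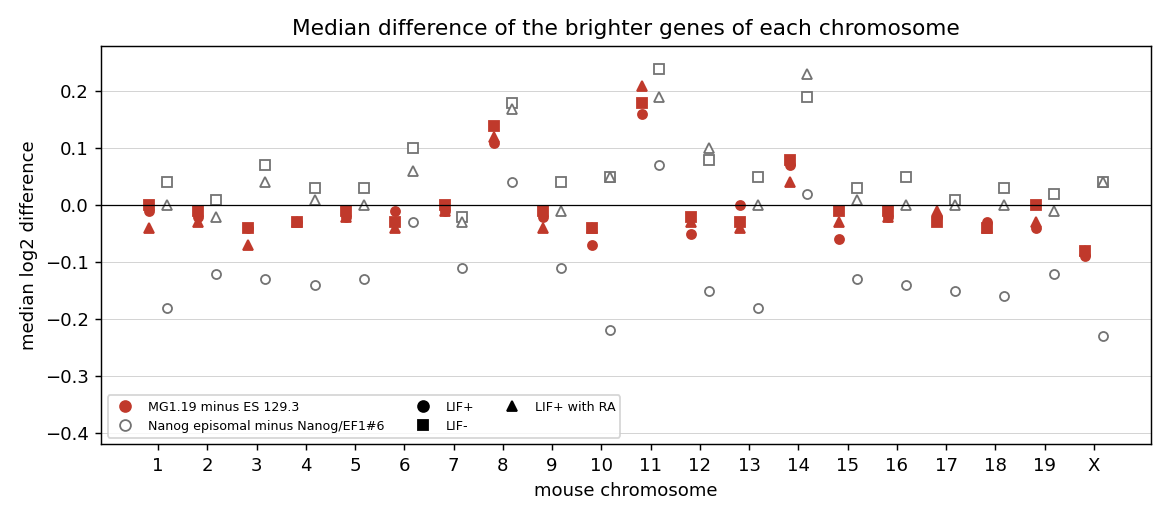
Median difference, log2, of the genes of each chromosome that lie at or above the median intensity of named genes, by medium. Filled red symbols are MG1.19 minus ES 129.3 and open gray symbols Nanog episomal minus Nanog/EF1#6. Chromosomes 8 and 11 lie above the others drawn, chromosome 14 excepted, in every medium in both comparisons, and the Y chromosome, with 2 such genes, is not drawn.

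Dim probes hold little information on a shift of this size, so the medians that follow use the 6845 of 13690 named genes at or above the median intensity, a choice made after the values were seen. On chromosome 11 the median difference of 586 such genes was 0.16, 0.18 and 0.21 in the 3 media and 0.18 for their mean, and 78.5% of them were higher in MG1.19. On chromosome 8 it was 0.12 over 326 genes, with 71.2% higher in MG1.19. On every other autosome but chromosome 14, and on the X chromosome, the median lay between -0.08 and -0.01. Over all genes, dim ones included, the medians were 0.10 on chromosome 11 and 0.06 on chromosome 8. In blocks of 15 neighbouring genes, 39 of 39 blocks of chromosome 11 and 21 of 21 of chromosome 8 had a median above 0, against 96 of 374 blocks of the chromosomes other than 8, 11 and 14. Block medians ran from 0.01 to 0.37 on chromosome 11 and from 0.01 to 0.34 on chromosome 8, and those of the other chromosomes reached 0.10, so the lower blocks of chromosomes 8 and 11 lie within the range of the others. The Cy5 reference on the same arrays had a median difference of 0 on each of the 2 chromosomes. Neither DNA content nor karyotype was measured.

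The clones, on other arrays, had medians of 0.17 on chromosome 11 and 0.13 on chromosome 8. Their LIF+ pair was offset as a whole, with medians of -0.23 to -0.03 on the X chromosome and the autosomes other than 8, 11 and 14, and chromosomes 8 and 11 lay above these at 0.04 and 0.07. Nanog episomal was analysed on the same day as MG1.19, and Nanog/EF1#6 on that of ES 129.3, so the part of the day in this recurrence cannot be told apart from that of the lines.

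**Figure D4:**
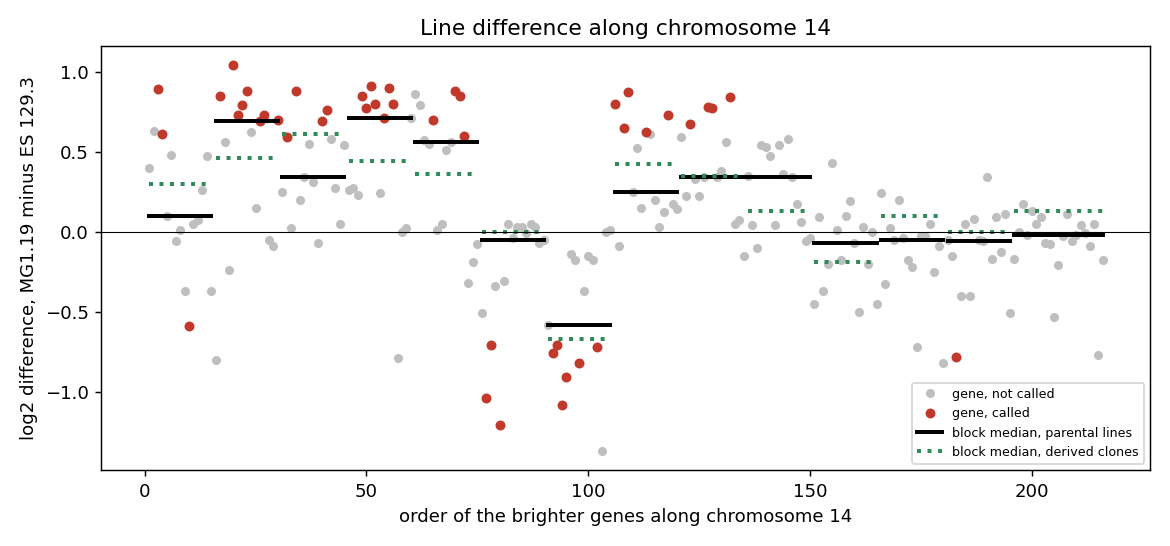
Difference, log2, of 216 brighter genes of chromosome 14 in their order along it, with called genes in red and the median of each block of neighbouring genes as a black line (parental lines) or a dotted green line (clones). The first 5 blocks lie above 0, the 7th below 0, blocks 8 to 10 above 0 and the last 4 blocks close to 0.

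Chromosome 14 behaved in stretches. Its median over 216 brighter genes was only 0.05, as it held stretches higher in MG1.19, a stretch lower in MG1.19 and a last stretch close to 0. Over the first 75, from 2610042L04Rik to Gmfb, 61 were higher in MG1.19 with a median of 0.51, and the medians by medium were 0.35, 0.54 and 0.50. The next 30 genes, from Cgrrf1 to Olfr1507, had a median of -0.25, and in the latter 15 of them, from Ttc5 onward, the median was -0.58 and only 2 were higher in MG1.19. The following 45, from Mrpl52 to Spryd7, had a median of 0.34, with 40 higher in MG1.19. In the last 66, from Trim13 to Tm9sf2, the median was -0.05 and 22 were higher in MG1.19. The stretches and their ends were read from these values and are a description.

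In the clones the same stretches had medians of 0.44, -0.12, 0.21 and 0, and the block from Ttc5 onward had -0.67. The Cy5 reference had medians of 0.01, -0.03, 0 and 0.02 over the 4 stretches. Called genes of the first stretch, chosen here for their function after their values were seen, include Bap1, a deubiquitinase of chromatin (0.85 in the parental lines and 0.76 in the clones), and Parg, which degrades poly(ADP-ribose) (0.90 and 0.41). Called genes lying in the stretch of opposite sign include Supt16, a subunit of the FACT histone chaperone (-1.10 and -1.45), Apex1, the main abasic-site endonuclease (-1.08 and -1.19), and Parp2, a poly(ADP-ribose) polymerase (-0.76 and -1.13).

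The parental calls were followed in the clones. Of the 129 genes called higher in MG1.19, 114 (88.4%) were also higher in Nanog episomal than in Nanog/EF1#6, 95 of them in all 3 media, with a median clone difference of 0.49. Of 186 called higher in ES 129.3 and measured in both, 124 (66.7%) were lower in Nanog episomal, 72 in all 3 media, with a median of -0.18. Of all genes with a positive parental difference 55.5% had a positive one in the clones, and of those with a negative difference 60.4% a negative one. Limma called 5 of 37631 genes in the clones (0.0133%), with 4971 (13.2%) at an unadjusted p of 0.05, and 1 of the 5 was among the parental calls.

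**Figure D5:**
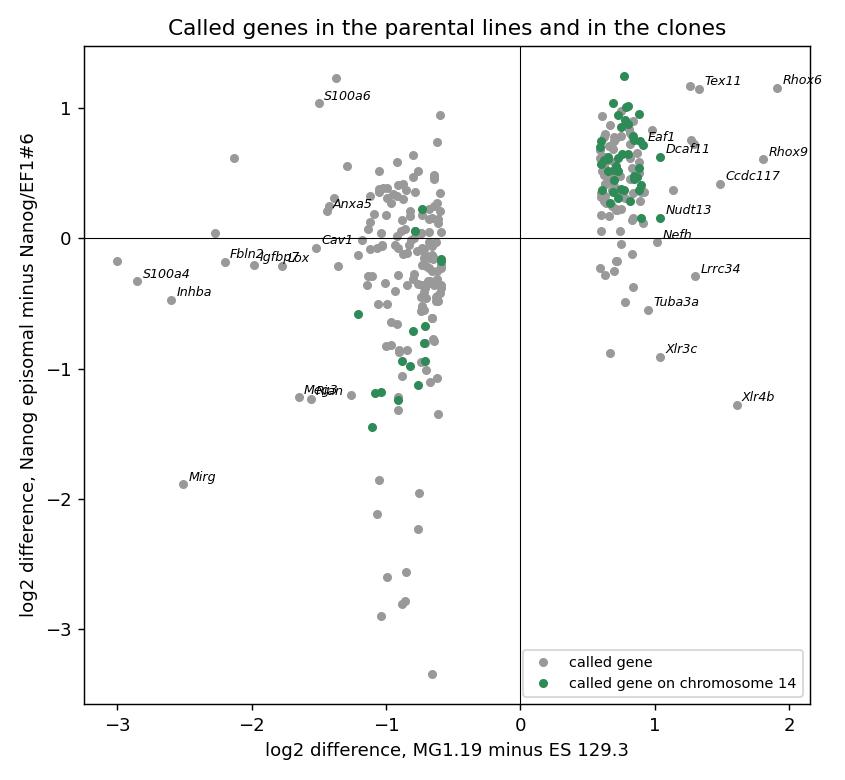
Differences, log2, of the genes called between the parental lines (horizontal axis, MG1.19 minus ES 129.3) and of the same genes between the clones (vertical axis, Nanog episomal minus Nanog/EF1#6), with genes of chromosome 14 in green and the named genes of the largest differences labelled. Meg3, Rian, Mirg, Rhox6 and Tex11 have the same sign on both axes, whereas S100a6, Xlr3c and Xlr4b change sign.

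The matrix and S100 genes parted from the imprinted and chromosome 14 genes here. The clone difference was -0.33 for S100a4, -0.47 for Inhba, -0.18 for Fbln2, -0.20 for Igfbp7, -0.21 for Lox and -0.07 for Cav1, all far smaller than between the parental lines, and 1.04 for S100a6. In the fit of all 12 arrays the difference of the line differences passed the limma adjusted p of 0.05 for S100a4, Inhba, Fbln2, Lox, S100a6 and Anxa5, and it was 0.0511 for Igfbp7 and 0.0818 for Cav1. Over all genes, 189 of 37554 passed with a 1.5-fold difference of the differences (0.503%). The matrix and S100 genes were named for their large parental difference, which is itself part of this contrast, so their selection favours such a result. The clones also express Nanog from a transgene, so a change of the line difference cannot be assigned to the lines alone.

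The reference channel was set beside the sample channel for the called genes. The median Cy5 difference was 0.03 for the genes called higher in MG1.19 and 0 for those called higher in ES 129.3, beside Cy3 differences of 0.81 and -0.78. For all 316 called genes the Cy3 difference had the sign of the ratio and was larger than the Cy5 difference. Over all 37603 genes the sign was shared by 26045, and Cy3 was the larger in 21921. Genes were called on the ratio, so the agreement in the called genes follows largely from their selection. The Cy5 difference reached 1.5-fold for 0 of the 316 and for 43 of all genes. Where the differences arose was not tested.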

How the data were processed

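RNA of each line and medium was labelled with Cy3 and hybridised with a Cy5-labelled universal reference on a two-color oligonucleotide array of the 44K design. For each array the authors deposited scanner output of Feature Extraction A.7.5.1, whose mean spot signals and median local backgrounds are intensities. They also deposited normalized values in log10 units. One such deposited column is treated as a score, since it holds 10 codes for missing values, which were set to missing. From the intensities, background was corrected by normexp (offset 50) and the dyes were brought to balance with a loess curve per array in limma 3.58.1 (R 4.3.3). Flagged spots were dropped, saturated spots kept, and spots of a probe averaged as log2(Cy3/Cy5). Of 41006 gene probes, 15294 were named through RefSeq (GRCm38.p6), 1745 through annotation given by the study (S100a4, Meg3, Rian and Mirg among them) and 23967 had no symbol. The brightest probe stood for each symbol and unnamed probes counted singly.

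The lines were compared by lmFit and eBayes with line and medium as terms, two-sided, adjusted by Benjamini and Hochberg over 37603 genes. Arrays of the same medium deviated together from their line means (r = 0.611, 0.723 and 0.782), so medium stayed in the fit. Every gene described array by array exceeded the negative-control limit on all 6 arrays. The text names the 12 symbols with the largest called difference in each direction, called members of the gene lists and up to 4 further members of a list, and fixed controls. A few genes that these rules name are not reported here. The genes compared and the lists were chosen with earlier results of these data known. Chromosomes and gene order come from RefSeq. Fits were tested on simulated data. Figures were drawn with matplotlib 3.10.9. Each array is 1 culture in its own medium and no medium was repeated within a line, so p-values measure how far the line difference varies between media.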

Additional observations from a re-analysis of the deposited data

Results flagged for a closer look

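For 9 of the named genes the difference between the lines was not the same in the parental lines as in the clones, by the limma test of the difference itself over 12 arrays. The difference of the line differences (MG1.19 minus ES 129.3, less Nanog episomal minus Nanog/EF1#6) was -2.53 for S100a4, -2.13 for Inhba, -2.02 for Fbln2, -1.57 for Lox and -1.65 for Anxa5, where the parental difference was negative and the clone difference was -0.33, -0.47, -0.18, -0.21 and 0.21. It was -2.54 for S100a6, whose clone difference of 1.04 has the opposite sign. It was 2.90 for Xlr4b and 1.95 for Xlr3c, with clone differences of -1.28 and -0.91 in place of parental differences of 1.61 and 1.04. For Ddx3y on the Y chromosome it was 1.08, from a parental difference of 0.63 and a clone difference of -0.46. Limma adjusted p-values ran from 0.00092 (S100a4 and Inhba) to 0.0386 (Lox). All of these genes but Ddx3y were named for a large parental difference, which is itself part of this contrast. That choice favours a large difference of the differences. Over all genes 0.503% passed with a 1.5-fold difference of the differences.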

How the results depend on the processing

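The number of genes called between the parental lines depended on the processing. In place of 316 (129 higher in MG1.19, 187 in ES 129.3) it was 2 (0 and 2) with the processed signals of Feature Extraction, with the values normalized by the authors and with a correction of Cy5 bleaching, 14 (4 and 10) with Cy3 alone, 9 (3 and 6) with no replicate block, that is with medium left out of the fit, and 65 (14 and 51) at 2-fold. The test of the methods, which takes the larger of a gene's error variance and the mean of 500 genes of like intensity and refers z to a normal distribution, called 523, with 336 higher in ES 129.3, and the fit of all 12 arrays called 108 higher in ES 129.3. Leaving out 1 pair of arrays gave 0 to 350 calls in all, 0 to 151 higher in MG1.19 and 0 to 199 higher in ES 129.3. Between the clones, 5 calls became 20 with Cy3 alone, 0 with the values normalized by the authors and 0 with the correction of bleaching, 0 with any pair left out (limma, with 3095 to 5821 genes at an unadjusted p of 0.05), 7 with no replicate block and 930 in the fit of all 12 arrays, an alternative chosen after seeing the data. Under none of the 12 alternatives run on 43 single genes did a called difference change its sign. The called genes had the same sign in all 3 media, so leaving out a pair or medium could not change it. Of the 29 called among the 43, 27 lost their call with the processed signals and 29 without the LIF+ or the LIF- pair. The difference of Meg3 moved from -1.65 to -2.68 with the processed signals, the values normalized by the authors and the correction of bleaching. Over those alternatives the median of chromosome 11 ranged from 0.17 to 0.23, that of chromosome 8 from 0.11 to 0.18 and that of the first stretch of chromosome 14 from 0.46 to 0.57. With 2 residual degrees of freedom the calls rest on the spread pooled over genes, and the cause of the lost calls was not tested.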
